A study of Mus musculus with 8 samples.

Results

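The expression of 6 genes that act at the mitosis to meiosis transition was followed through cultured spermatogonial stem cells (SSCs), for Stra8, Gm4969 (the gene of MEIOSIN), Meioc, Ythdc2, Rbm46 and Dazl. They were taken from the count table by gene name, and all 6 were found among its 55421 gene identifiers and passed the filter on low counts, as did 20477 genes in all. RNA of 8 cultures was sequenced, 2 libraries for each of 4 conditions, which the study describes as independent replicates. All cultures came from testis cells of C57BL/6XDBA/2 pups aged 6 days, carried no engineered allele, grew on irradiated CF1 mouse embryonic fibroblasts (MEFs) with GDNF and bFGF, and were collected after 2 days of treatment. Veh cultures stayed in complete SSC medium with vehicle, RA cultures had 100 nM retinoic acid (dissolved in DMSO) in that medium, NR cultures (nutrient restriction, labelled EBSS) had 10% complete medium in 90% Earle's balanced salt solution, and NRRA cultures had the restricted medium with 100 nM retinoic acid. By the composition the study gives, GDNF, bFGF and serum are parts of the complete medium, so NR and NRRA cultures had less of them too. Their dilution and that of the nutrients cannot be told apart here. The feeder fibroblasts stayed in the dish, so a library holds RNA of germ cells and feeders together.

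Retinoic acid acts through nuclear receptors that bind short DNA repeats and is the signal that drives spermatogonia towards differentiation and, later, meiosis. STRA8 is induced by it and works with MEIOSIN as a pair of transcription factors that switches on genes of meiotic prophase. The other four genes encode RNA regulators. YTHDC2, an RNA helicase that reads N6-methyladenosine, and its partner MEIOC bind mitotic transcripts and lower their abundance so that meiotic prophase can proceed. RBM46 is an RNA-binding protein that associates with the same pair, and DAZL binds transcripts and promotes their translation in germ cells, which makes them competent to respond to retinoic acid.

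Each library held 19261333 to 30023585 counted reads, so that 1 CPM (counts scaled to 1000000 reads of a library) stood for 19.2 to 31.2 reads. The labelled cell type was checked against marker genes. All 8 germ cell markers were detected, with summed CPM of 836 to 851 for Veh, 797 to 798 for RA, 1027 to 1030 for NR and 967 to 988 for NRRA. The 9 fibroblast markers, which include collagen genes, summed to 9888 to 10169 CPM for Veh and 8050 to 8714 for RA, against 21266 to 22353 for NR and 18904 to 19454 for NRRA. The members of this list did not move alike, since 8 were higher and 0 lower in NR than in Veh and 7 were higher and 2 lower in NRRA, where Lum gave -0.74 and Fbn1 -0.10, and the collagen genes carry most of the sum. The 10 markers of undifferentiated spermatogonia summed to 919 to 986 CPM in Veh and 812 to 833 in NR, and to 340 to 347 in RA and 168 in both NRRA libraries. The 5 markers of differentiating spermatogonia, which include Kit, summed to 1506 to 1534 CPM in Veh and 1291 to 1343 in RA. Their sum was 1211 to 1227 in NR and 1398 to 1414 in NRRA. The single members did not all follow this sum. RA vs Veh had 2 of them higher and 1 lower, NR vs Veh 2 higher and 2 lower, and NRRA vs Veh 4 higher and 1 lower. Kit, at a mean of only 6.32 CPM without treatment, carried little of the Veh sum. Its log2 fold change was 5.03 for RA vs Veh and 5.82 for NRRA vs Veh. Sertoli markers (6 genes) summed to 37.7 to 40.2 CPM in Veh and 43.2 to 46.6 in NR, with Fshr at 0 in Veh. Their sum was 25.4 to 25.8 in RA and 13.0 to 14.7 in NRRA. Leydig markers (4) summed to 12.6 to 14.1 CPM in RA and to between 5.32 and 8.29 in the other conditions. Macrophage markers (4) lay between 89.1 and 131 and spermatid markers (5) between 0.893 and 1.34, with Prm2 and Acrv1 at 0 in Veh. In these bulk libraries, fewer cells of a type and less RNA per cell cannot be told apart.

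The genes differed in which treatment moved them, with Stra8 and Meioc led by retinoic acid and Gm4969 answering to each treatment. Promoters are shown as a description, and a link between their letters and these responses was not tested. Each line gives 300 bases of RefSeq sequence on GRCm38.p6, from 250 bases before to 50 after the annotated start, written along the gene's own strand. Windows of 5 of the 6 genes were searched, matched by symbol (Gm4969 under its RefSeq symbol Bhmg1), and 4 are printed. Ythdc2 was not searched, since windows on its chromosome were left out of the matching. Capitals mark letters searched on both strands, which were AGGTCA (a half-site of retinoic acid receptors), CNCCTCAG (a motif described at promoters bound by STRA8), CACGTG (an E-box, its own reverse complement) and GCGGGAA (a site of the E2F type).
Stra8, chr6:34920698-34920997, plus strand: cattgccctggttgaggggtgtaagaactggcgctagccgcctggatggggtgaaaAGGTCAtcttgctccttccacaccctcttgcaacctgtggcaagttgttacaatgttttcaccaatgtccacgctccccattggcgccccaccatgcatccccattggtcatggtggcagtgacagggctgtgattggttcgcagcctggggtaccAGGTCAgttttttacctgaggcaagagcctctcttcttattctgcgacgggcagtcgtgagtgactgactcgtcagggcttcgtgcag
Gm4969, chr7:19118295-19118594, minus strand: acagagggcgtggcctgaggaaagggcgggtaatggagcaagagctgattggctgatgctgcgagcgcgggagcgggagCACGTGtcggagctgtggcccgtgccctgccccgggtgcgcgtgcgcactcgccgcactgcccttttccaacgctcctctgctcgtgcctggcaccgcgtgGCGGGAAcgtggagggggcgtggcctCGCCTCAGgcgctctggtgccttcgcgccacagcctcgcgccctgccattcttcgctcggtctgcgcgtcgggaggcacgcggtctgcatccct
Rbm46, chr3:82876434-82876733, minus strand: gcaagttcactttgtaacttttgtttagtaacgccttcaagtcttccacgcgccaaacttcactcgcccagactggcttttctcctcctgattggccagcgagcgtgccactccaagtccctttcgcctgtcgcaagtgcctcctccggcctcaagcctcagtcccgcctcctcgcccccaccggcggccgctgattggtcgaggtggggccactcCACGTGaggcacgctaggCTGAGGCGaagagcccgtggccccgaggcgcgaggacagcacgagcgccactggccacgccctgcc
Dazl, chr17:50293571-50293870, minus strand: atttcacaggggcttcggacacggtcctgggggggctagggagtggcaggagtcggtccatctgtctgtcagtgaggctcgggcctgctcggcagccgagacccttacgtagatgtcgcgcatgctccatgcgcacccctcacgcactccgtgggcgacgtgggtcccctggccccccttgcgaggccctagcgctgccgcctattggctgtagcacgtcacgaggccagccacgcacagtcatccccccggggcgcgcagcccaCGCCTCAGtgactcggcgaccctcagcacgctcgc

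The Stra8 window held AGGTCA at 2 places, beginning 194 and 38 bases before the start, and none of the other three motifs. Of 32851 promoter windows of the same length, 16.3% held AGGTCA at least once and 1.81% at least 2 times. The Gm4969, Meioc, Rbm46 and Dazl windows held no AGGTCA, although these genes too were higher in RA than in Veh. The Gm4969 window held CACGTG from 171 bases before the start, then GCGGGAA from 70 bases before it, and CNCCTCAG from 44 bases before it. The Rbm46 window held CACGTG 34 bases before the start and CNCCTCAG on the opposite strand (printed as CTGAGGCG) 16 bases before it, and the Dazl window held CNCCTCAG from base 16 after it. In the Meioc window, at chr11:102665335-102665634, GCGGGAA was found 228 bases before the start, although the last 50 bases of that window lay in 0 transcripts of the GENCODE M21 annotation. The Stra8 and Meioc windows lay wholly inside their gene spans in that annotation, so before the start means before the RefSeq start there. The last 50 bases of the Stra8 window lay in 1 transcript. CNCCTCAG was held by 7.94% of all windows, CACGTG by 7.15% and GCGGGAA by 4.6%. The matches did not overlap each other, and they describe letters in these windows, not binding.

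The genes lie at chr6:34920163-34939344 (Stra8), chr7:19099046-19118368 (Gm4969), chr11:102663716-102682237 (Meioc), chr18:44827746-44889724 (Ythdc2), chr3:82837228-82876483 (Rbm46) and chr17:50279395-50293636 (Dazl) in GENCODE M21 on GRCm38. None shared exon bases with another gene in that annotation. Per kilobase of exon, Dazl was the highest of the 6 in Veh, at 81.4 ± 4.45 CPM per kb (SD, n = 2), followed by Rbm46 at 9.98 ± 1.31, Meioc at 2.66 ± 0.00224, Ythdc2 at 2.22 ± 0.549, Stra8 at 0.735 ± 0.146 and Gm4969 at 0.221 ± 0.0303. In NRRA the first place was taken by Stra8, at 520 ± 15.8 CPM per kb, ahead of Dazl at 122 ± 0.440, Rbm46 at 28.7 ± 0.573, Meioc at 7.67 ± 0.150, Ythdc2 at 3.89 ± 0.184 and Gm4969 at 2.25 ± 0.232. Gm4969 was thus the least abundant of the 6 per kilobase in both conditions, and Stra8 moved from the fifth place to the first.

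**Figure D1:**
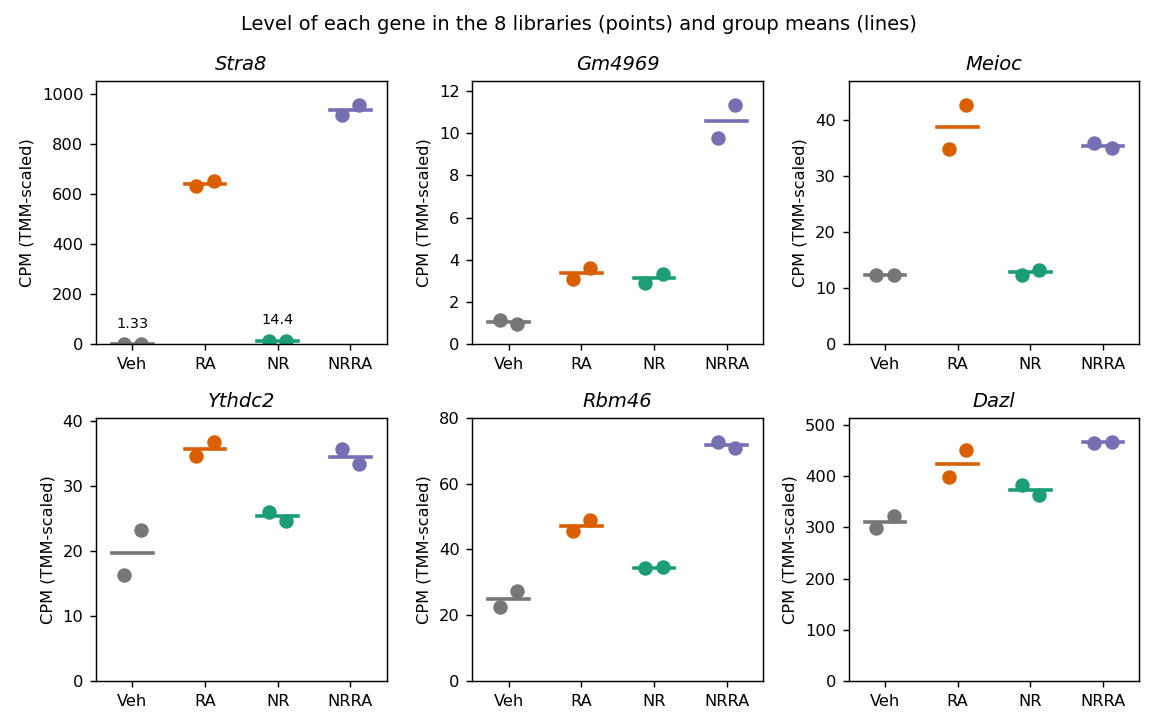
Level of each of the 6 genes in CPM (linear axes from 0, scaled separately) in the 8 libraries, with points for libraries and lines for the mean of the 2 libraries of a condition. Stra8 (means of 1.33 in Veh and 14.4 in NR written above the points) and Meioc separate by retinoic acid, Gm4969 stands highest in NRRA, and Ythdc2, Rbm46 and Dazl move over narrower ranges.

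With retinoic acid in complete medium, all 6 genes were higher than in Veh by edgeR's quasi-likelihood test at an adjusted p under 0.05, and 3 of them (Stra8, Gm4969 and Meioc) by at least 2-fold. Among all tested genes, 19.8% were higher in this comparison and 4.74% were higher by at least 2-fold. The median log2 fold change was 1.30 over the 6 genes and -0.02 over all tested genes. Under nutrient restriction alone, 5 of the 6 were higher than in Veh (21.7% of all genes), 2 of them at least 2-fold (5.33%), with medians of 0.42 and 0.01. With both treatments all 6 were higher than in Veh (30.1% of all genes) and 4 by at least 2-fold (9.91%), with medians of 1.53 and 0.03. All 3 comparisons use the same 2 Veh libraries.

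**Figure D2:**
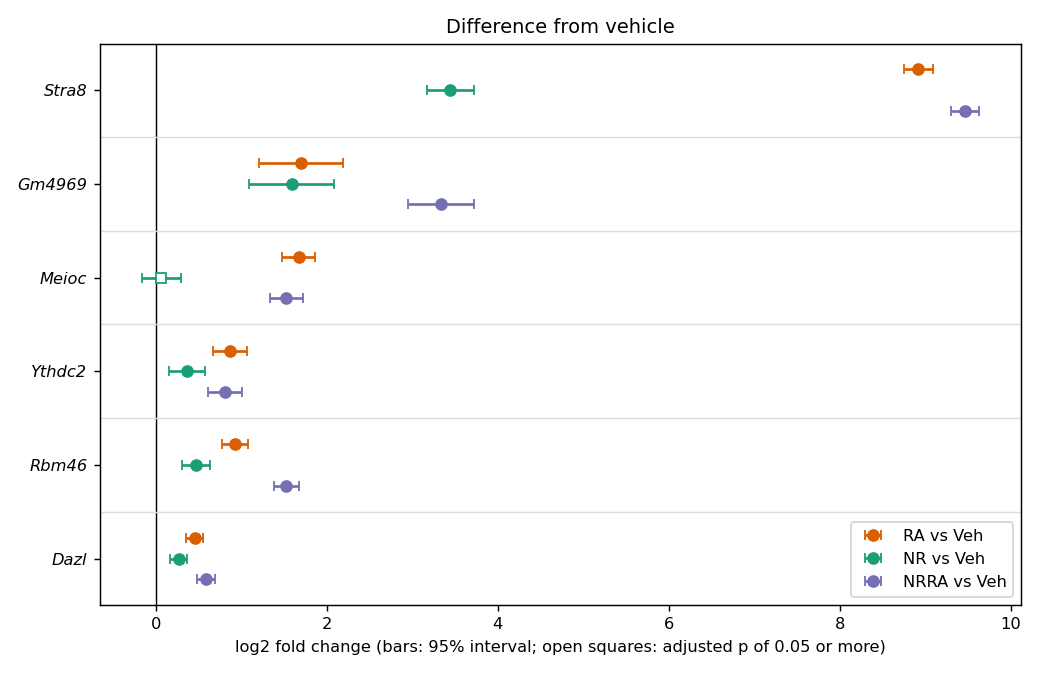
Log2 fold change from Veh of each gene in RA, NR and NRRA, with the 95% interval as bars; filled circles have an adjusted p under 0.05 and the open square does not. Stra8 stands apart at 8.92 in RA and 9.47 in NRRA, and Meioc in NR is the only value whose interval spans 0.

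Stra8 rose with retinoic acid, with nutrient restriction and most with both. The Veh libraries held 1.14 and 1.51 CPM (23 and 29 reads), those of NR 14.6 and 14.3, those of RA 632 and 653, and those of NRRA 917 and 957. The 4 conditions did not overlap, and the 2 libraries of each lay close together. Retinoic acid alone gave a 485-fold difference from Veh, or 8.92 ± 0.08 as log2 fold change with its SE (adjusted p = 8.09e-31). Nutrient restriction alone gave 3.44 ± 0.14 (adjusted p = 2.55e-17), a 10.9-fold difference that ended at 14.4 CPM. When retinoic acid was present, nutrient restriction added a log2 fold change of 0.55 ± 0.04 (NRRA vs RA, adjusted p = 8.91e-12), or 1.46-fold. Among all 20477 tested genes, Stra8 had the largest absolute log2 fold change in NRRA vs Veh.

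Gm4969, the partner of Stra8, rose with each single treatment and more with both. The Veh libraries held 1.14 and 0.938 CPM (23 and 18 reads), the RA libraries 3.11 and 3.61, the NR libraries 2.89 and 3.34, and the NRRA libraries 9.79 and 11.3 (274 and 353 reads). RA and NR overlapped, Veh lay below both and NRRA above both. The log2 fold change was 1.70 ± 0.24 for RA vs Veh (adjusted p = 1.86e-06) and 1.59 ± 0.24 for NR vs Veh (adjusted p = 6.09e-06). NR vs RA gave -0.11 with a 95% interval from -0.48 to 0.25 (adjusted p = 0.63), so a difference between the single treatments was not detectable at this depth. In NRRA the gene was 3.11-fold above RA (log2 1.64 ± 0.14, adjusted p = 1.84e-10), 3.37-fold above NR (1.75 ± 0.14, adjusted p = 9.11e-11) and 10.1-fold above Veh (3.34 ± 0.19, adjusted p = 2.77e-14).

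The balance within the pair moved by condition. Per kilobase of exon, the ratio of Stra8 to Gm4969 was 2.6 and 4.20 in the Veh libraries and 13.1 and 11.2 in those of NR, against 529 and 471 with RA and 244 and 220.0 with NRRA. The ratio was thus highest in RA, and in NRRA, where both genes were at their highest, it lay below both RA libraries. These ratios rest on 18 to 353 reads of Gm4969 per library and were not tested.

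Meioc rose with retinoic acid in both media, and its differences between media did not pass the test. Without retinoic acid its level was 12.3 and 12.3 CPM (Veh) and 12.4 and 13.2 (NR), and with it 34.8 and 42.7 (RA) and 35.9 and 34.9 (NRRA). The 4 libraries with retinoic acid all lay above the 4 without it. The log2 fold change was 1.67 ± 0.09 for RA vs Veh (adjusted p = 8.96e-14) and 1.46 ± 0.09 for NRRA vs NR (adjusted p = 2.87e-13). NR vs Veh gave 0.06, with a 95% interval from -0.16 to 0.29 and an adjusted p of 0.685. NRRA vs RA gave -0.14 (95% interval -0.30 to 0.01, adjusted p = 0.134) with the RA libraries spanning both NRRA libraries; without RA replicate 1 it was -0.27 (adjusted p = 0.00854) and without RA replicate 2 it was 0.03 (adjusted p = 0.855). It also passed as -0.17 without either Veh library (adjusted p = 0.042 and 0.0426) and as -0.24 with an offset for GC content and length (adjusted p = 0.00168).

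Ythdc2, whose product works with MEIOC, rose less. The Veh libraries held 16.3 and 23.2 CPM, the RA libraries 34.7 and 36.8, the NR libraries 26.1 and 24.6, and the NRRA libraries 35.7 and 33.4. The Veh libraries differed from each other more than those of any other condition, and RA and NRRA overlapped. RA was 1.82-fold above Veh (log2 0.86 ± 0.10, adjusted p = 6.46e-08), and NRRA 1.75-fold (0.81 ± 0.10, adjusted p = 5.71e-08). NR vs Veh was 0.36 ± 0.10 (adjusted p = 0.0054), but without Veh replicate 1 it was 0.14 (adjusted p = 0.223), and it did not pass with DESeq2 (0.36, adjusted p = 0.114). NRRA vs RA gave -0.05, with a 95% interval from -0.23 to 0.12 (adjusted p = 0.655). Per kilobase, the ratio of Ythdc2 to Meioc was 0.690 and 0.980 for Veh and 1.09 and 0.972 for NR, but 0.518 and 0.449 for RA and 0.517 and 0.497 for NRRA. The partners were thus nearer to equal without retinoic acid, with Ythdc2 slightly the more abundant in NR replicate 1. With retinoic acid, Meioc was the more abundant in every library.

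Rbm46 rose in each treatment and was highest in NRRA. It stood at 22.6 and 27.3 CPM (Veh), 34.4 and 34.5 (NR), 45.5 and 49.0 (RA), and 72.8 and 70.8 (NRRA), with no overlap between conditions. The log2 fold change was 0.93 ± 0.07 for RA vs Veh (adjusted p = 1.21e-10), 0.47 ± 0.08 for NR vs Veh (adjusted p = 1.74e-05) and 1.53 ± 0.07 for NRRA vs Veh (adjusted p = 4.27e-16). NRRA exceeded RA by 0.60 ± 0.06 (adjusted p = 1.07e-08), a 1.51-fold difference. Against Ythdc2, Rbm46 gained in NRRA. The ratio of Ythdc2 to Rbm46 per kilobase was 0.138 and 0.133 there and between 0.201 and 0.240 in the other 6 libraries.

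Dazl was abundant in every library, and its 4 condition means spanned the smallest fold range of the 6 genes. Its level was 299 and 323 CPM (Veh), 384 and 363 (NR), 399 and 451 (RA), and 465 and 467 (NRRA). The ranges of the 4 conditions did not overlap. RA vs Veh gave a log2 fold change of 0.45 ± 0.05 (adjusted p = 3.96e-08), NR vs Veh 0.26 ± 0.05 (adjusted p = 9.6e-05) and NRRA vs Veh 0.58 ± 0.05 (adjusted p = 1.11e-10). In the same comparisons the geometric mean of the 8 germ cell markers moved by -0.14, 0.26 and 0.12 on the log2 scale, so that in NR vs Veh Dazl and this mean moved by the same amount. The single markers did not move alike. They ran from -0.53 (Tdrd1) to 0.25 (Sall4) in RA vs Veh and from -0.04 (Tex19.1) to 0.61 (Tdrd1) in NR vs Veh. In NRRA vs Veh they ran from -0.28 (Dnd1) to 0.63 (Sall4). The part of the germ cell share in the Dazl result was not tested. NRRA vs RA gave 0.13 (adjusted p = 0.0302), a call that was lost with DESeq2 (0.11, adjusted p = 0.139), with the GC and length offset described next (0.0025, adjusted p = 0.955) and in 5 of 8 fits that left out 1 library, namely RA 1 (0.05, adjusted p = 0.53), NR 1, NR 2, NRRA 1 or NRRA 2.

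Base composition moved with the same comparisons. The 4 RNA regulators have transcripts of low GC content, with 37.0% in Dazl, 38.4% in Rbm46, 38.5% in Meioc and 42.0% in Ythdc2, against 50.9% in Stra8 and 51.2% in Gm4969. In the 5112 tested genes with the lowest GC content (up to 44.9%), the median log2 fold change was 0.21 for RA vs Veh, 0.16 for NR vs Veh and 0.28 for NRRA vs Veh, and in the 5112 with the highest it was -0.13, -0.08 and -0.11. With an offset that removed the trend with GC content and length from each library, Dazl fell to 0.12 in RA vs Veh (adjusted p = 0.00166), -0.03 in NR vs Veh (adjusted p = 0.426) and 0.12 in NRRA vs Veh (adjusted p = 0.000721). Meioc gave 1.37, -0.19 and 1.13 in the same order, Ythdc2 0.65, 0.15 and 0.49, and Rbm46 0.63, 0.21 and 1.12. Of these, the NR vs Veh values of Meioc (adjusted p = 0.128) and Ythdc2 (adjusted p = 0.153) did not pass. Stra8 (9.0, 3.5 and 9.56) and Gm4969 (1.79, 1.61 and 3.41) moved by less than 0.1. Thus 3 of the 6 genes, Stra8, Gm4969 and Rbm46, were higher in NR than in Veh with the offset, against 5 without it. Over all tested genes, 9440 were called in either direction in NR vs Veh with the offset and 8985 without it.

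**Figure D3:**
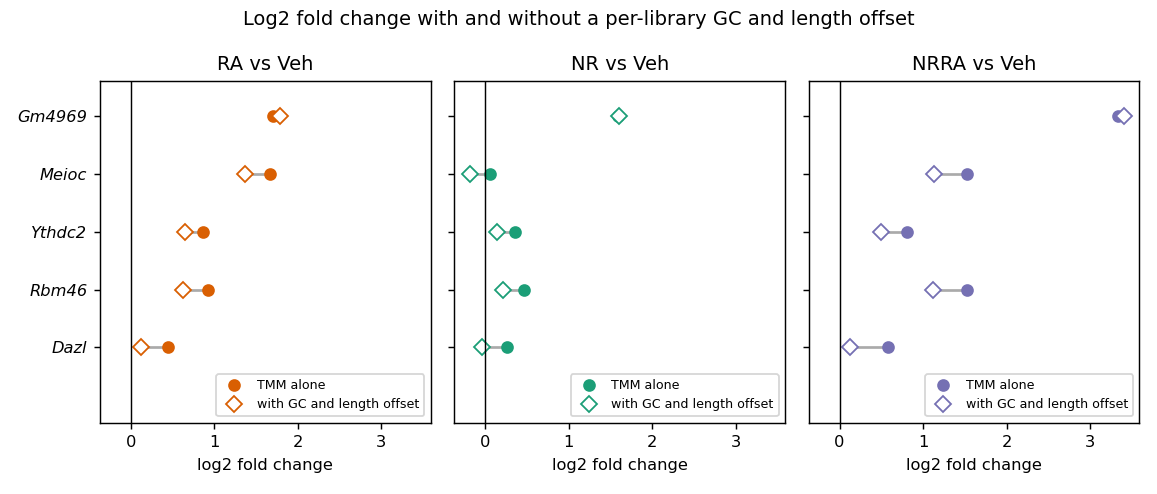
Log2 fold change from Veh of 5 genes (Stra8 is left out because its values lie beyond the axis), by TMM normalization alone (filled circles) and with an offset for GC content and length in each library (open diamonds), on 1 shared linear axis. Meioc, Ythdc2, Rbm46 and Dazl shift to the left with the offset and Gm4969 does not.

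With retinoic acid present, nutrient restriction raised Stra8, Gm4969 and Rbm46, and Dazl passed too, at 0.13 (NRRA vs RA, 4 of the 6 genes, with 20.9% of all tested genes higher). The Dazl call was lost under 10 of 17 alternatives, in which 3 genes were higher. By at least 2-fold, 1 gene was higher (4.61%). The median log2 fold change was 0.34 over the 6 genes and 0.02 over all genes. Retinoic acid on top of nutrient restriction raised all 6 (NRRA vs NR, 21.3% of all genes higher), 4 of them by at least 2-fold (4.56%), and here the medians were 1.26 and 0.01. In the single treatments set side by side, 5 of the 6 were lower in NR than in RA (23.8% of all genes lower), Gm4969 being the exception. The Dazl call in NR vs RA was lost without RA replicate 2 (-0.10, adjusted p = 0.159) and without NR replicate 2 (-0.15, adjusted p = 0.0648).

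Whether the medium altered the effect of retinoic acid was tested as the difference between NRRA vs NR and RA vs Veh. Of the 6 genes, 2 differed and both were lower (6.58% of all tested genes lower). For Stra8 the retinoic acid effect was 8.92 in complete medium and 6.02 under nutrient restriction, a difference of -2.90 ± 0.15 (adjusted p = 1.76e-13), with the NR baseline at 14.4 CPM against 1.33 in Veh. For Ythdc2 the effects were 0.86 and 0.45, a difference of -0.42 ± 0.13 (adjusted p = 0.0382) that did not pass with DESeq2 (adjusted p = 0.341) and passed in 1 of 8 fits that left out 1 library (Veh replicate 2). The remaining differences did not pass, at 0.05 for Gm4969 (95% interval -0.61 to 0.71, adjusted p = 0.946), -0.20 for Meioc (-0.48 to 0.07, adjusted p = 0.358), 0.13 for Rbm46 (-0.08 to 0.34, adjusted p = 0.454) and -0.13 for Dazl (-0.27 to 0.01, adjusted p = 0.245). Dazl passed without Veh replicate 2 (-0.22, adjusted p = 0.00858) and without RA replicate 1 (-0.21, adjusted p = 0.0422), and was 0.03 with the GC and length offset. With that offset Rbm46 gave 0.27 (adjusted p = 0.0155), and Ythdc2 -0.30 (adjusted p = 0.0512).

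**Figure D4:**
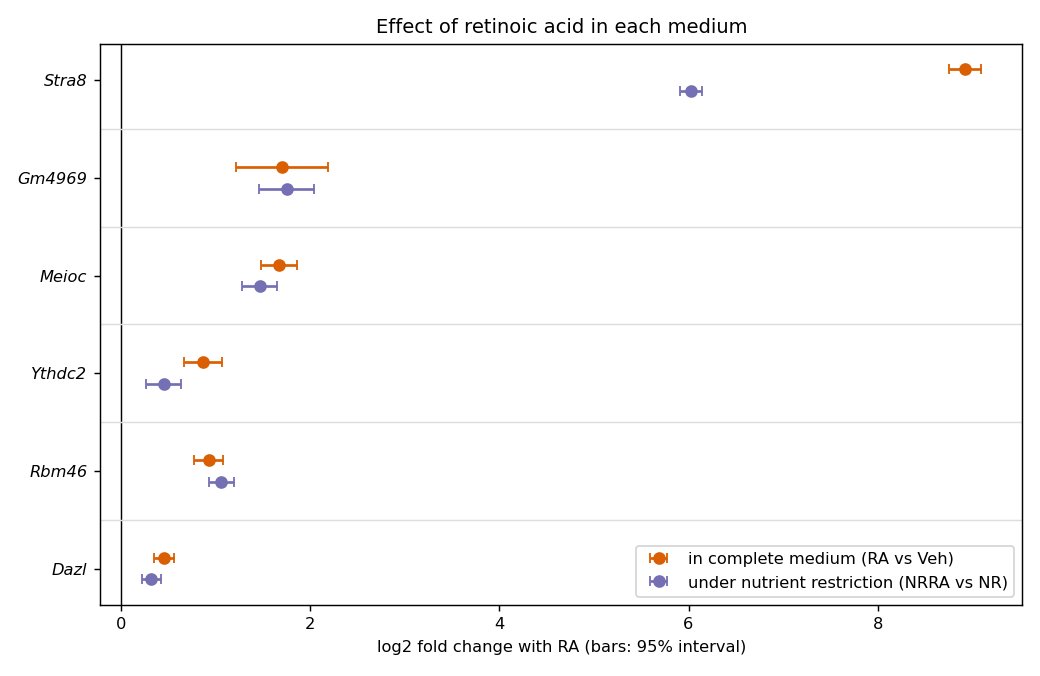
Log2 fold change with retinoic acid in complete medium (RA vs Veh) and under nutrient restriction (NRRA vs NR) for each gene, with 95% intervals. The intervals are far apart for Stra8 (8.92 and 6.02) and overlap for Gm4969, Meioc, Rbm46 and Dazl.

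On the linear scale the order was different. Adding the separate gains of RA and NR to the Veh mean gives 655 CPM for Stra8, and the NRRA mean was 937. For Gm4969 the sum is 5.44 CPM and the product of the separate folds gives 10.1, with NRRA at 10.6. For Rbm46 the sum is 56.7 and the product 65.2, and NRRA stood at 71.8. The other three lay below both, with NRRA at 35.4 against 39.2 and 40.3 for Meioc, 34.5 against 41.4 and 45.9 for Ythdc2, and 466 against 487 and 510.1 for Dazl. For Stra8 the product is 6995 CPM, well above what was measured. The sums were not tested, and the interaction test above is the test against the product.

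Genes around the same step were read from lists. Of 9 retinoic acid response genes, all 9 were higher in RA and in NRRA than in Veh, and 3 were higher and 2 lower in NR. Over all tested genes, 19.8% were higher in RA and 30.1% in NRRA, and 21.7% were higher and 22.2% lower in NR. The medians of the list were 3.24 (RA), 0.27 (NR) and 3.32 (NRRA) on the log2 scale. In NRRA vs Veh, Cyp26a1, which degrades retinoic acid, gave 7.57, Rarb, a retinoic acid receptor, 6.78, Dhrs3, a retinaldehyde reductase, 3.86, and Rec8, the meiotic cohesin subunit that is also on the prophase list, 3.38. Cyp26a1 and Rarb stood at 0.291 and 0.545 CPM in NR, near their Veh levels of 0.456 and 0.431, and their NR vs Veh values of -0.61 and 0.35 did not pass (adjusted p = 0.337 and 0.554), while Stra8 rose 10.9-fold there. Rarb shares 38.4% of its exon bases with genes on the opposite strand, so its values depend on the strand setting of the counting, which is not given.

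Of 37 tested meiotic prophase genes, many of which STRA8 and MEIOSIN are known to act on, 24 were higher in RA than in Veh and 0 lower, 16 were higher and 1 lower in NR, and 31 were higher and 0 lower in NRRA. Over all tested genes, 19.8%, 21.7% and 30.1% were higher and 23.4%, 22.2% and 28.7% lower in the same order. The median log2 fold change of the list was 0.52, 0.29 and 0.81. In NRRA vs RA, 18 of the 37 were higher and 0 lower, with 20.9% of all tested genes higher. With DESeq2, 10 of the 37 were higher there. Over all tested genes, DESeq2 called 6281 in either direction in NRRA vs RA, against 8254 with edgeR. With the GC and length offset the higher counts against Veh were 21, 14 and 30, and 2 were lower in RA. Over all tested genes, 8706, 9440 and 12203 were called in either direction with the offset, against 8837, 8985 and 12051 without it. Apart from Rec8, the largest values in NRRA vs Veh were those of Hfm1, a helicase of crossover formation (1.92), Sycp3, an axis protein (1.86), and Mei1, needed for double-strand breaks (1.73). In Sycp3, as in Gm4969, Veh was lowest, the single treatments lay close together and NRRA was highest, with Veh at 9.90 ± 1.25 CPM, RA at 19.6 ± 1.99, NR at 19.7 ± 0.244 and NRRA at 35.9 ± 0.156 (SD, n = 2), whereas Rec8 was at 77.7 ± 0.442 in RA and 76.3 ± 0.342 in NRRA. Of the exon bases of Sycp3, 52.2% are shared with Chpt1 on the opposite strand, and since the strand setting of the counting is not given, its values may include reads of Chpt1.

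**Figure D5:**
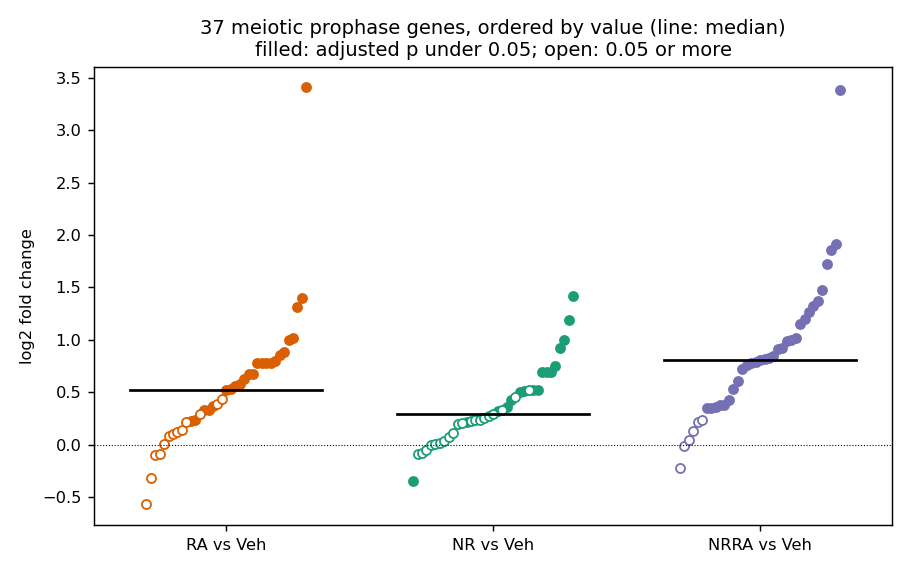
Log2 fold change from Veh of the 37 tested meiotic prophase genes in RA, NR and NRRA, ordered by value within each comparison, with the median as a line; filled points have an adjusted p under 0.05. The median is 0.52, 0.29 and 0.81, and the highest point in RA and in NRRA is Rec8.

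Of 16 tested factors otherwise linked to meiotic entry, such as the repressor MGA with its partners and spermatogonial transcription factors, 4 were higher and 8 lower in RA than in Veh, 9 were higher and 3 lower in NR, and 8 were higher and 6 lower with both, against 19.8% higher and 23.4% lower, 21.7% and 22.2%, and 30.1% and 28.7% over all tested genes. The list thus held genes that moved in both directions. Nanos3, an RNA-binding protein of undifferentiated germ cells, gave -3.48 in NRRA vs Veh, Sox3, a transcription factor of spermatogonia, 1.05, Zfp541, a chromatin factor of spermatocytes, 0.96, and Sohlh1, a transcription factor of differentiating spermatogonia, 0.86. Sohlh1 was at 24.4 ± 2.07 CPM in Veh and 23.8 ± 2.39 in RA, against 51.3 ± 0.538 in NR and 44.3 ± 2.49 in NRRA, and Sox3 was likewise higher in both restricted media (49.2 ± 0.770 and 44.5 ± 1.5) than in Veh and RA (21.4 ± 2.5 and 16.4 ± 0.918).

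Genes of the pathways of the RNA regulators moved in both directions. Of 17 writers, erasers and readers of N6-methyladenosine, NRRA vs Veh had 7 higher and 7 lower, with a median of -0.05, and over all tested genes 30.1% were higher and 28.7% lower. Igf2bp1 and Igf2bp2, readers that stabilise transcripts, gave -1.19 and -0.48, Rbm15b, an adaptor of the methyltransferase, -0.42, and Wtap, another adaptor, 0.36, a value that became -0.01 with the GC and length offset. Of 17 tested mRNA decay partners, 6 were higher and 5 lower, with a median of 0.01. Scaled by library totals alone, the same comparison gave 7 higher and 4 lower for the first list and 9 higher and 3 lower for the second. That scaling moved the median of all tested genes to 0.143, with 12156 of 20477 called in either direction. The exonuclease gene Xrn1, whose product binds YTHDC2, gave 0.76 (0.30 with the GC and length offset), the deadenylase gene Cnot6 0.39 (0.02 with the offset), and Btg1 and Tob1, which recruit deadenylases, -0.54 and -0.48. With the offset, the counts in NRRA vs Veh were 2 higher and 10 lower for each of these 2 lists. Over all 20477 tested genes, 12203 were called in either direction with the offset and 12051 without it. Shares higher and lower with the offset were not computed, so these counts have no background by direction. Of 11 genes of the DAZ family and of translation partners, 6 were higher and 4 lower, with a median of 0.21. Ybx2 gave 1.04, Boll, another gene of the DAZ family, 0.81 (0.24 with the offset, adjusted p = 0.0502), Nanos1 0.46 and Ddx4, a germ cell helicase, 0.41 (0.20 with the offset).

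Mitotic transcripts are the targets that YTHDC2 and MEIOC are known to lower. A list of 9 cell cycle genes held mitotic cyclins and partners, and the cyclin E genes Ccne1 and Ccne2, which act at entry into S phase. Of the 9, 2 were higher and 3 lower in RA than in Veh, and 1 was higher and 8 lower in NR. In NRRA, 1 was higher and 6 lower. The medians were -0.04, -0.39 and -0.30 for RA, NR and NRRA. Those higher in RA were Ccne1 and Ccne2, and the 1 higher in NR and in NRRA was Ccne2. Over all tested genes, 23.4%, 22.2% and 28.7% were lower in the same order. In NRRA vs Veh, Cdk1 gave -0.42, Ccnb1 -0.39 and Cdc20 -0.34, and Ccne2 0.94 (0.44 with the GC and length offset). Ccna2, on the same list, did not pass in RA vs Veh (-0.01, adjusted p = 0.895) or NRRA vs Veh (-0.08, adjusted p = 0.174). In NR vs Veh it gave -0.54. Whether YTHDC2 or MEIOC had a part in these values was not tested. The fibroblast markers moved in the same comparisons, and their part in these values was not tested.

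Genes with a pattern most like each of the 6 were ranked by Pearson's r of log2 CPM over the 8 libraries, among 14800 genes, as a description. The 8 points share 4 conditions, so r mostly follows the condition means, and it does not weigh the size of a change. A ranking by Euclidean distance shared 1 gene with this one for Stra8, 1 for Ythdc2, and 0 for Gm4969, Meioc, Rbm46 and Dazl. Gca (0.998), Kit (0.997) and Arfgef3 (0.994) came first for Stra8. Kit, the receptor of differentiating spermatogonia, stood at a mean of 6.32 CPM (Veh), 23.7 (NR), 207 (RA) and 358 (NRRA), and was thus, like Stra8, higher in NR than in Veh and highest in NRRA. Crebl2, As3mt and Serpinb6b were the nearest to Gm4969 (0.991 to 0.997). In NRRA vs Veh they gave 0.69, 0.84 and 2.54 on the log2 scale, against 3.34 for Gm4969. The mean of Serpinb6b was 4.39 CPM (Veh), 9.82 (RA), 9.62 (NR) and 25.7 (NRRA). The nearest to Ythdc2 were Swt1, 9430018G01Rik and Asxl2 (0.995 to 0.996), and those to Meioc were Smc2, Tnk2 and Cyp26a1 (0.992 to 0.994). Magi3, Wrn and Cd38 were nearest to Rbm46 (0.994 to 0.997), and Zfp606, Smc6 and Tmtc3 to Dazl (0.994 to 0.996). Cyp26a1 and Meioc were both highest in RA and next in NRRA, with Veh and NR in opposite order, although their ranges differ widely (0.291 to 118 CPM and 12.3 to 38.7 CPM).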

How the data were processed

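Cultures were profiled by mRNA sequencing (TRIzol RNA, poly(A) selection, paired-end reads). The labels and the study name different library kits. The submitters' processing notes name bcl2fastq, STAR 2.6.1c, featureCounts 1.6.4 and build mm10; the strand setting is not given in the sources used here. The authors deposited 1 table of raw read counts per gene, whole numbers without normalization, for 8 libraries; 0 columns lacked a sample. Groups were taken from sample titles.

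Of 55421 gene identifiers, 55240 were matched to GENCODE M21. Counts were filtered with filterByExpr and scaled by TMM, and edgeR 4.0.16 (R 4.3.3) quasi-likelihood models with 1 coefficient per group were fitted to all 8 libraries. The 6 pairwise comparisons and the interaction were tested with Benjamini-Hochberg adjustment over 20477 genes; "higher", "lower" and "rose" mean an adjusted p under 0.05, and counts are also given at a fold of at least 2. Intervals are 95% intervals of the fit. CPM uses TMM-scaled totals, and CPM per kb divides by the length of merged exons. The pipeline was tested on simulated data. Figures were drawn with matplotlib 3.10.9.

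With 2 libraries per group an exact permutation test could not reach the threshold, so p-values rest on the spread pooled over genes. Replicates differed by more than counting noise (chi-square per gene between 1.58 and 3.93). Alternatives were DESeq2 1.42.0, RLE or no scaling, no filter or a mean of at least 50 counts, 2-group fits, a replicate block, an offset for GC content and length, and leaving out each library.

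The 6 genes, the lists and the tests were chosen with earlier results of these data known, and the promoter motifs after the windows had been read, so list counts and motif matches are descriptions. From each list, up to 4 genes are named, those with the largest absolute log2 fold change among genes called in NRRA vs Veh with a mean of at least 50 counts. Ccna2 and Ccne1 are named in addition. The genes most like a member are the 3 with the highest r under the same minimum, with log2 CPM taken at a prior count of 2. Protein sequences were not used here.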

Additional observations from a re-analysis of the deposited data

Results flagged for a closer look

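The effect of retinoic acid on Stra8 differed between the media by the interaction test. It was 8.92 on the log2 scale in complete medium and 6.02 under nutrient restriction, a difference of -2.90 (adjusted p = 1.76e-13 by edgeR, higher with retinoic acid in 2 of 2 libraries in each medium). Stra8 stood at 1.33 CPM in Veh and 14.4 in NR, and at 642 in RA and 937 in NRRA.

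The effect of retinoic acid on Ythdc2 differed by the same test, at 0.86 and 0.45, a difference of -0.42 (adjusted p = 0.0382 by edgeR). The Veh libraries of Ythdc2 stood at 16.3 and 23.2 CPM, and without Veh replicate 1 the difference was -0.22 (adjusted p = 0.204).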

How the results depend on the processing

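Of 708 values of single genes under the alternatives, 659 kept their direction and call, 26 lost their call, 9 gained one and 14 changed direction. At a fold of at least 2, the count of the 6 genes was 3 in RA vs Veh, 2 in NR vs Veh, 1 in NRRA vs RA, 2 in NR vs RA and 1 in the interaction. With the GC and length offset, alone or with the replicate block, 3 genes were called in NR vs Veh, where Meioc turned to -0.187 (-0.189 with the block) and Dazl to -0.032 in both. Dazl turned in the interaction to 0.034 (0.035 with the block) and Wtap in NRRA vs Veh to -0.00748 (-0.00795 with the block). The interaction had 1 gene with DESeq2 and 1 to 3 when a library was left out, with 3 (Stra8, Ythdc2 and Dazl) without Veh replicate 2. Leaving out 1 library turned values near 0, which ran from -0.270 to 0.026 for Meioc in NRRA vs RA and from -0.239 to 0.012 for Gm4969 in NR vs RA (both turned without RA replicate 2), and in the interaction from -0.042 to 0.220 for Rbm46 (turned without Veh replicate 2) and from -0.138 to 0.180 for Gm4969 (turned without Veh 1, RA 1, NR 1 or NRRA 2); a minimum mean of 50 counts gave -0.00156 for Gm4969 there. The cause was not tested.

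Replicate numbers did not pair the samples, since deviations of same-numbered libraries correlated at -0.071 to 0.078. The replicate block alone called 6, 5, 6, 4, 6, 5 and 2 genes in the 7 comparisons, as without it, and changed no call or direction of the 42 values. Over all genes, interaction calls fell from 2652 to 1716 with DESeq2, and to 1642, 1727 and 1753 without RA replicate 2, NR replicate 1 and NRRA replicate 2. Scaling by library totals moved the median of all genes in NRRA vs Veh to 0.143, and RLE scaling ended the Dazl call in NRRA vs RA (0.11, adjusted p = 0.0638). Of 1176 list counts under the alternatives, 130 moved by over 1.5 times. Genes near 1 CPM, such as Gm4969 and Stra8 in Veh with 18 to 29 reads, are limited by depth.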
